A study of Mus musculus with 5 samples.

Results

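Interferon-stimulated genes were followed in ribosome-bound midbrain RNA through 9 members, Ifit1, Ifit3, Ifitm3, Isg15, Irf7, Oasl2, Bst2, Rtp4 and Ifi27, chosen by name as genes that interferon induces. All 9 were found among the 53700 gene IDs of the count table, and all 9 had enough reads to be tested. RNA was purified by BAC-TRAP, in which an EGFP-tagged ribosomal protein (L10a) is switched on by Cre recombinase and pulled down with the mRNA on its ribosomes. The WT group (genotype L10a;Esrrg WT, n = 3 libraries, replicates 2, 3 and 4) and the Flox group (genotype L10a;Esrrg Flox, n = 2, replicates 2 and 4) were C57BL/6 mice aged 4 months, each library a pool of midbrains taken 1 month after injection. Both groups carried the L10a transgene and both received AAV:THCre, a virus whose Cre is driven by a tyrosine hydroxylase (Th) promoter, so that in Flox mice the cells that switch on the tag also lose exon 2 of Esrrg, which encodes the nuclear receptor ERRγ. All 5 libraries thus came from virus-injected brains, and levels without virus were not analysed here. The comparison asked how the ribosome-bound RNA of these genes differed between WT and Flox, in a purification aimed at dopaminergic (DAergic) neurons.

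Interferons are secreted proteins that cells release when they sense viral or misplaced nucleic acid. Type I interferons act through the receptor pair Ifnar1 and Ifnar2 and the kinases Jak1 and Tyk2, which activate STAT transcription factors. With Irf9 these form a complex that binds the interferon-stimulated response element (ISRE) near the start of its target genes. In the brain neurons, astrocytes, microglia and endothelial cells can all respond, and microglia and endothelium express several of these genes at rest.

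Libraries held between 20635855 and 23105058 counts assigned to genes. Esrrg itself was at 1763, 1643 and 1726 normalized counts in the WT libraries and at 1504 and 1170.1 in the Flox libraries (DESeq2 log2 fold change -0.35, SE 0.13, adjusted p = 0.0753), and because reads from the remaining exons still count, this total does not measure the deletion. Markers of DAergic neurons were abundant in every library, with a summed level over 11 genes between 50978 and 60872 normalized counts. RNA of other cells was present too. Per kilobase of exon, the DAergic gene Th stood at 4629.5 normalized counts (mean of 5 libraries) and the astrocyte gene Gfap at 5964. A level reported here is therefore that of the purified RNA, not of DAergic neurons alone, and in such bulk samples more cells of a type and more RNA per cell cannot be told apart.

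Promoter sequences are shown first, because what several members share beside their name is the response element at their start. RefSeq windows (GRCm38.p6, 250 bases before to 50 after the annotated start) were available for 7 of the 9 members, and Rtp4 and Ifi27 had none. The ISRE core was searched on both strands as GAAA, any 2 bases, and GAAA again. It was found in 5 of these 7 (71.4%), namely Ifit1, Ifit3, Isg15, Bst2 and Ifitm3, against 3.99% of 27025 genes with a window and 15 of 38 (39.5%) other interferon-induced genes. Capitals mark the core, and overlapping cores run together.
Ifit1 (chr19:34640639-34640938, + strand): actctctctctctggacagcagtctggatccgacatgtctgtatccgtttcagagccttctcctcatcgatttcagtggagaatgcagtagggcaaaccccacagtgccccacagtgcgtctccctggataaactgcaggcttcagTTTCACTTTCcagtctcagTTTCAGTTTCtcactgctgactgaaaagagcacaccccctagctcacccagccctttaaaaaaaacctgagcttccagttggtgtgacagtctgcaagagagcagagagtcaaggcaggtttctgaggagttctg
Isg15 (chr4:156200769-156201068, - strand): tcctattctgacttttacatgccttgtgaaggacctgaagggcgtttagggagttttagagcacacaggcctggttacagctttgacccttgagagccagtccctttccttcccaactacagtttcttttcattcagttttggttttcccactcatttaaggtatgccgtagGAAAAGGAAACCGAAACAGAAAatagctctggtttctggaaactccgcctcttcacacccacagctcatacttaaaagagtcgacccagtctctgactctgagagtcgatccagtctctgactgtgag
Bst2 (chr8:71537423-71537722, - strand): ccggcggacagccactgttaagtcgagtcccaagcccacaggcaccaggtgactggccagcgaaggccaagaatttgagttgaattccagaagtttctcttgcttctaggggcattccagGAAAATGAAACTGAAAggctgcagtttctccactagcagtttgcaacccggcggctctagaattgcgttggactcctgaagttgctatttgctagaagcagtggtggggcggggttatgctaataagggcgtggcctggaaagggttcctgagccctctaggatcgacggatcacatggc
In Ifit3 and Ifitm3 only 30 bases around 1 of the cores are given, again with that core in capitals.
Ifit3 (chr19:34583397-34583426, + strand): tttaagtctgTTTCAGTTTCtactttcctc
Ifitm3 (chr7:141010706-141010735, - strand): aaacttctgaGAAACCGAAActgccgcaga
Ifit1 and Ifit3 each held 2 cores that read on the opposite strand of the gene, Isg15 held 3 overlapping cores, and Bst2 held 2 overlapping ones. In Ifitm3 both cores lay just after the start, at 2 and 19 bases from it. The interferon-gamma activated site (GAS), searched as TTCNNNGAA (a palindrome, so both strands are covered), was present in Bst2 and Ifitm3, against 9.55% of all genes. In Bst2 it overlapped the first ISRE core, and in Ifitm3 it overlapped the second. In Oasl2 and Irf7 neither set of letters was found in this window.

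**Figure D1:**
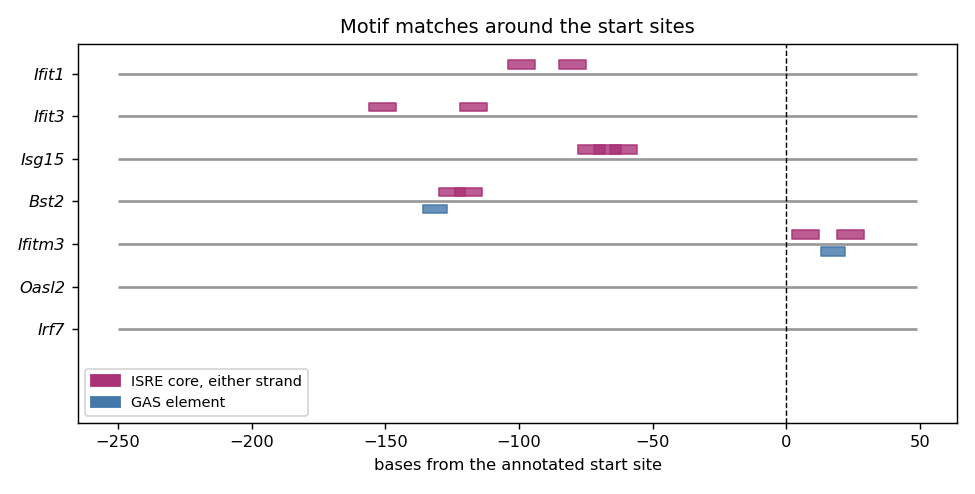
Matches to the ISRE core (upper bars) and the GAS element (lower bars) in the 7 members with a RefSeq window, by distance in bases from the annotated start site (dashed line). The cores of Ifit1, Ifit3, Isg15 and Bst2 lie before the start, those of Ifitm3 after it, and Oasl2 and Irf7 have no bar.

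All 9 genes were expressed in every WT library. Per kilobase of exon (GENCODE M21 lengths, normalized counts, mean of 5 libraries), Ifit3 was highest at 3161, followed by Bst2 at 2876, Ifi27 at 1729.7, Isg15 at 1622, Ifit1 at 877, Ifitm3 at 850.4, Oasl2 at 559.9, Rtp4 at 442 and Irf7 at 206. Among 12846 genes with a mean of at least 50 normalized counts, Ifit3 lay at the 96.8th percentile per kilobase and Irf7 at the 62.4th. The interferon genes themselves were close to absent. Of 10 ligand genes, 7 had 0 counts in all 5 libraries, where a level of up to 0.130 to 0.145 CPM (a count scaled to the library total, here 3 counts) could have been missed. The remaining 3 were Ifna1 with 1 read in WT replicate 2, Ifnb1 with 2 reads in Flox replicate 2, and Ifng, which had 1, 2 and 0 reads in the WT libraries against 3 and 7 in the Flox pools.

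None of the 9 members passed the test between Flox and WT. The DESeq2 count was 0 of 9 at an adjusted p under 0.05 (1 at an unadjusted p under 0.05, Ifitm3), where 8.25% of the 15724 genes tested passed. With edgeR's quasi-likelihood test it was also 0 of 9 (2 at an unadjusted p under 0.05, Ifitm3 and Bst2), where 1.42% of all genes passed, 0.884% higher and 0.535% lower. The median log2 fold change of the members was 0.21, beside -0.0063 for all genes tested, with 5 members above 0 and 4 below. Both Flox libraries were below every WT library in 0 of 9 members (22.5% of all genes tested). Most of the spread lay between the Flox pools, as the values of each gene show.

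Irf7, the transcription factor that amplifies the type I response, had 712, 814 and 666 normalized counts in the WT libraries against 680.1 and 1011 in the Flox pools. Flox replicate 2 lay inside the WT range and Flox replicate 4 above it. The log2 fold change was 0.21 (SE 0.18, DESeq2 adjusted p = 0.581). Exons of Irf7 overlap those of Phrf1 on the opposite strand, and since the libraries did not record strand its count is uncertain.

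Flox replicate 2 was the lowest of the 5 libraries in 5 of 9 members (12.2% of genes with a mean of at least 50 normalized counts). These were Isg15, Rtp4 and the 3 RNA-binding effectors, Ifit1, Ifit3 and Oasl2. Ifit1, which binds foreign RNA ends and blocks their translation, had 2138, 2260.3 and 2753 normalized counts in the WT libraries against 1550.5 and 2949.5 in the Flox pools. Its WT libraries thus fell between the Flox libraries, and the log2 fold change was -0.083 (SE 0.37, DESeq2 adjusted p = 0.943). Ifit3, from the same family as Ifit1, had 4809, 5677 and 7521 in the WT libraries against 3310.4 and 6265 in the Flox pools. Here the highest library was WT replicate 4, and the log2 fold change was -0.33 (SE 0.41, DESeq2 adjusted p = 0.751). In the Ifit3 transcript 31.7% of all 100-base stretches also occur in Ifit3b, so an unknown share of reads of this pair was not assigned, and the Ifit3 count is uncertain. Ifit3b, counted on its own, had 1990.2, 2391 and 3244 in the WT libraries against 1515 and 2371 in the Flox pools, with Flox replicate 2 again lowest and WT replicate 4 highest.

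Oasl2, a member of the oligoadenylate synthetase family of double-stranded RNA sensors, had 3686, 3439 and 4318 normalized counts in the WT libraries against 2410.2 and 3991 in the Flox pools. Flox replicate 2 was below every WT library and Flox replicate 4 within their range. The log2 fold change was -0.25 (SE 0.18, DESeq2 adjusted p = 0.478). Isg15, a ubiquitin-like protein that is attached to other proteins, showed the widest gap between the Flox libraries as a ratio, with 964, 1153 and 1261 in the WT libraries against 776 and 1976 in the Flox pools. Both Flox libraries lay outside the WT range, on opposite sides, and the log2 fold change of 0.29 had an SE of 0.49 (DESeq2 adjusted p = 0.829).

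Bst2 and Ifitm3 are membrane proteins that hold viruses back. In both, the Flox libraries lay above every WT library, an arrangement of 2 of 9 members, which is near its share of 19.9% among all genes tested. Bst2 (tetherin), which ties new virus particles to the cell surface, had 2217, 2090.1 and 1971 normalized counts in the WT libraries against 2271 and 4436 in the Flox pools. The margin of Flox replicate 2 over WT was small and that of Flox replicate 4 was large, and the log2 fold change was 0.68 (SE 0.35, DESeq2 adjusted p = 0.256). Ifitm3, which blocks fusion of viruses in endosomes, had 544, 505 and 526 in the WT libraries against 604 and 704 in the Flox pools. It was the member with the closest Flox libraries, and its log2 fold change was 0.32 (SE 0.14, DESeq2 adjusted p = 0.166).

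The remaining members took different positions. Rtp4, a chaperone of G protein-coupled receptors that interferon induces, had 953, 899 and 1056 normalized counts in the WT libraries against 671 and 1131 in the Flox pools, which bracket the WT range (DESeq2 log2 fold change -0.11, SE 0.19, adjusted p = 0.841). Some of its sequence (11.2% of 100-base stretches) is shared with the overlapping transcript Gm45338. Ifi27, a small membrane protein, had 2179.8, 2044 and 2691 in the WT libraries against 2305 and 3467 in the Flox pools. Flox replicate 2 lay within the WT range and Flox replicate 4 above it (DESeq2 log2 fold change 0.32, SE 0.17, adjusted p = 0.278).

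**Figure D2:**
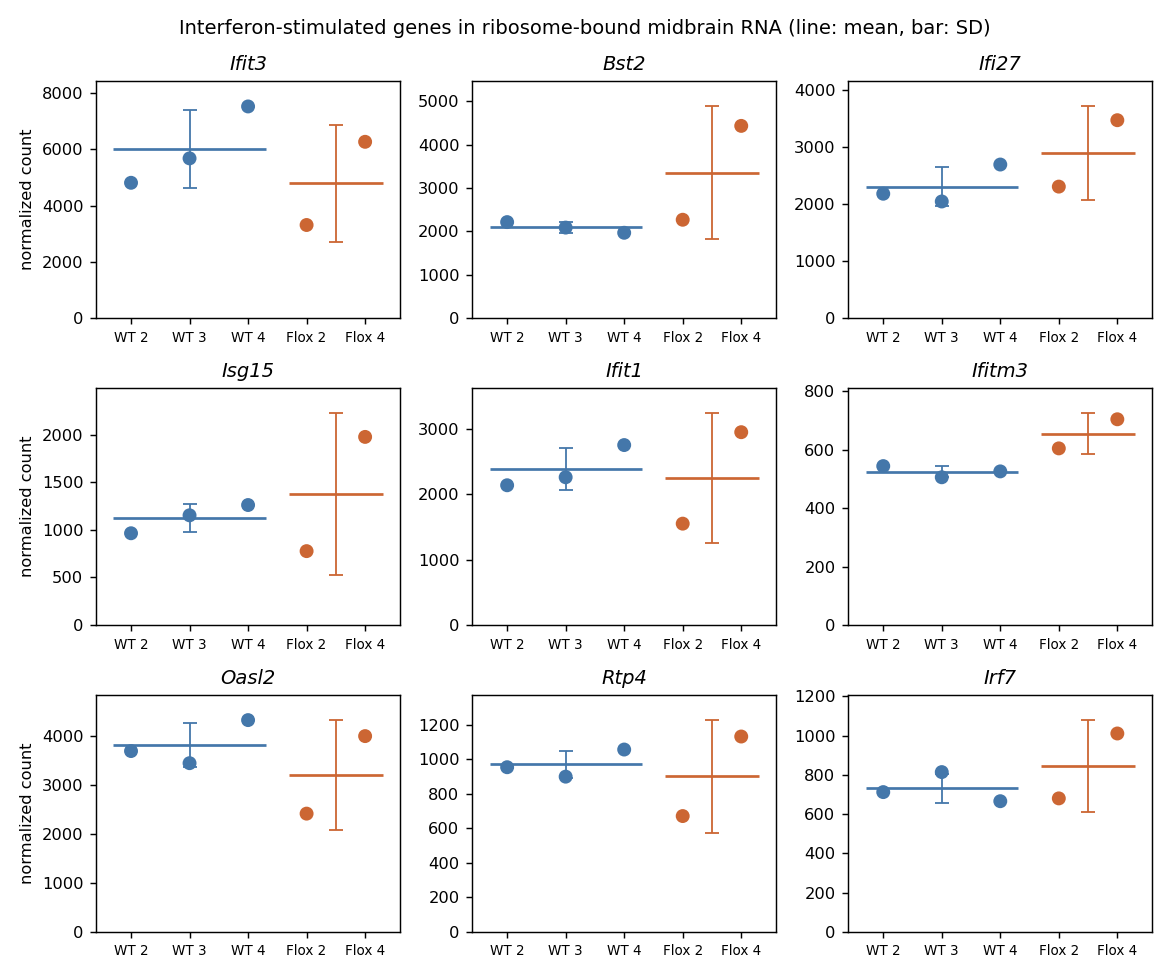
Normalized counts of the 9 members in each WT (blue) and Flox (orange) library, with the group mean as a line, the SD as a bar and each vertical axis starting at 0. Flox 4 is above Flox 2 in every panel, and in Isg15 the Flox libraries (776 and 1976) lie on either side of the WT libraries.

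The Flox libraries stood further apart than the group means in every member but Ifitm3. Flox replicate 4 was above Flox replicate 2 in 9 of 9 members, by 1.16-fold in Ifitm3 and by 1.49-fold (Irf7) to 2.55-fold (Isg15) in the others. This order was not particular to the members. It held in 45 of 50 other interferon-induced genes (median 1.55-fold), 16 of 17 sensors and adaptors (1.34-fold) and 5 of 6 negative regulators. It also held in 4 of 6 signalling genes, 3 of 6 receptor genes and 6293 of the 12846 genes with a mean of at least 50 normalized counts. The median difference of the members was 0.75 on the log2 scale, with sign and as an absolute value. Over those 12846 genes with a mean of at least 50 normalized counts it was -0.0059 with sign and 0.163 as an absolute value. Flox replicate 4 lay above every WT library in 7 of 9 members (33.3% of those genes), and Flox replicate 2 lay below every WT library in 5 of 9 (32.5%). For the members the spread within WT was smaller, with a median range of 0.33 on the log2 scale over the 3 WT libraries. Over those 12846 genes the median WT range was 0.22, above the median absolute difference of 0.163 between the Flox libraries. A range over 3 libraries and a difference between 2 are unlike measures.

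Because of this split, the outcome of the test turned on which Flox pool was used. With Flox replicate 4 as the only Flox library, 3 members passed as higher, where 5.29% of all genes did, and 0 as lower, where 5.49% did (10.8% in either direction). These were Bst2 (DESeq2 log2 fold change 1.08, SE 0.14, adjusted p = 1.1e-11), Isg15 (0.81, SE 0.18, adjusted p = 2.6e-04) and Ifi27 (0.59, SE 0.17, adjusted p = 0.0092). With Flox replicate 2 as the only Flox library, 2 members passed as lower, where 0.365% of all genes did, and 0 as higher, where 0.309% did (0.674% in either direction). The 2 were Oasl2 (-0.67, SE 0.16, DESeq2 adjusted p = 0.00769) and Ifit1 (-0.62, SE 0.17, adjusted p = 0.0417). In each of these fits the lone Flox library is assumed to vary as the WT libraries do. The median of the members went from 0.42 with Flox replicate 4 alone to -0.54 with Flox replicate 2 alone.

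**Figure D3:**
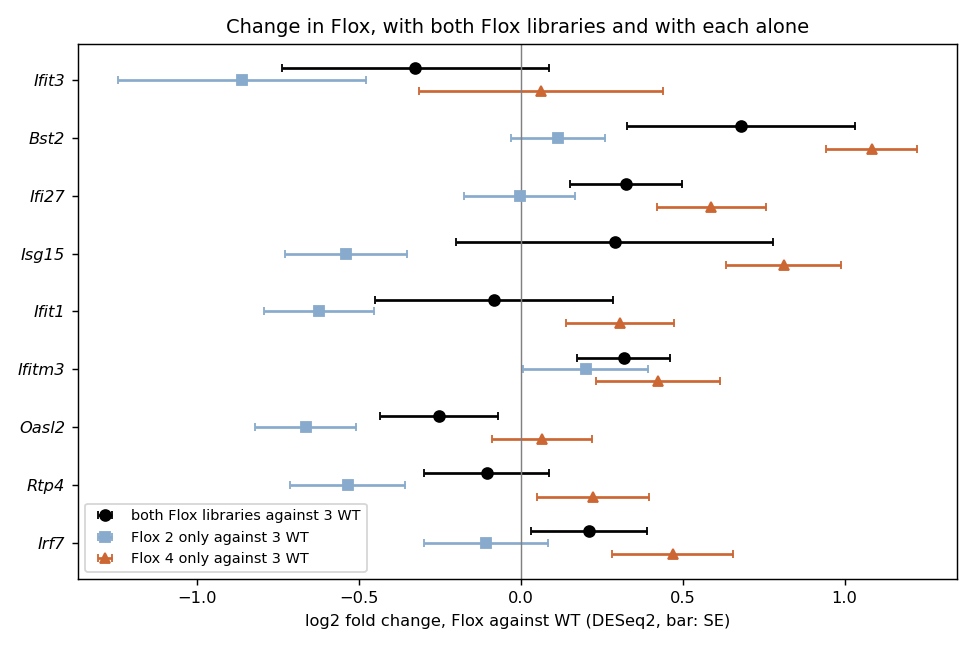
DESeq2 log2 fold change of each member against the 3 WT libraries (bar, SE), with both Flox libraries (black circles), with Flox 2 only (blue squares) and with Flox 4 only (orange triangles). The triangles lie to the right of the squares in all 9 genes, and the median moves from -0.54 (squares) to 0.42 (triangles).

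Upstream of these genes no receptor, signalling gene or sensor passed the test. The receptor subunit Ifnar1 averaged 507 ± 28.5 normalized counts (SD) over 3 WT libraries and 455 ± 65.0 over 2 Flox libraries, with a log2 fold change of -0.16 (SE 0.16, DESeq2 adjusted p = 0.665). Its partner Ifnar2 had 189 ± 7.79 and 215 ± 21.8 (0.19, SE 0.20, adjusted p = 0.690). Of 6 receptor genes, 6 signalling genes and 17 sensors and adaptors, 0 passed in DESeq2 (1, 1 and 1 at an unadjusted p under 0.05), where 8.25% of all genes did, and 0 passed in edgeR (1, 1 and 3). Of the sensors 15 had a DESeq2 adjusted p. Irf9, the DNA-binding subunit of the ISRE complex, had 918, 951 and 1281 normalized counts in the WT libraries against 707 and 1065 in the Flox pools, with Flox replicate 2 below every WT library and Flox replicate 4 within their range. Its log2 fold change was -0.25 (SE 0.19, DESeq2 adjusted p = 0.539), and that of its partner Stat2 was 0.13 (SE 0.18, adjusted p = 0.773).

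Of 7 negative regulators 6 had counts and were tested, and 1 passed in DESeq2 (8.25% of all genes) and 0 in edgeR (3 at an unadjusted p under 0.05). Usp18, the enzyme that removes Isg15 from proteins and dampens the receptor, averaged 1343 ± 195 normalized counts over the WT libraries and 1039.8 ± 255 over the Flox libraries (DESeq2 log2 fold change -0.37, SE 0.17, adjusted p = 0.184). Ptpn6, a phosphatase of blood and microglial cells, rose from 54.8 ± 30.3 to 181 ± 73.5 (1.72, SE 0.42, adjusted p = 0.00201).

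A list of 50 other interferon-induced genes held 8 that passed, 6 higher (4.2% of all genes were called higher) and 2 lower (4.05%), and its median was 0.056. All 8 also changed by at least 1.5-fold, as did 1.77% of all genes upward and 1.41% downward. Ifit2, from the same family and gene cluster as Ifit1 and Ifit3, had 2641, 2369 and 2072 normalized counts in the WT libraries against 1315 and 1759 in the Flox pools. Both Flox libraries were below every WT library, and Ifit2 fell by 0.62 on the log2 scale (SE 0.15, DESeq2 adjusted p = 0.00237). It did not pass in edgeR (adjusted p = 0.0607). Shfl, which stops programmed ribosomal frameshifting by viruses, had 1516, 1359 and 1564 in the WT libraries against 1041 and 915 in the Flox pools, a fall of the same kind (-0.60, SE 0.13, DESeq2 adjusted p = 2.5e-04, edgeR adjusted p = 0.044). In Shfl, unlike the 9 members, Flox replicate 4 was the lower of the Flox libraries.

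The 6 that rose were Ifi204, a DNA sensor (DESeq2 log2 fold change 2.12, SE 0.42, adjusted p = 8.7e-05), Slfn5 (1.73), Sp100 (1.68), Oas3 (1.62), Slfn2 (1.40) and Ifi30, a lysosomal thiol reductase of antigen-presenting cells (from 60.2 ± 11.4 to 171 ± 55.3 normalized counts, SD). They were scarce, with means between 39.2 (Oas3) and 115 (Slfn2) normalized counts, whereas Ifit2 and Shfl had means of 2031 and 1279. Among the 50 listed genes both Flox libraries were above every WT library in 11 and below in 5 (19.9% and 22.5% of all genes tested). All 6 were among the 11, an arrangement that choosing genes by this test favours. In all 6 Flox replicate 4 was above Flox replicate 2. Ifi204, for example, had 33.7, 47.9 and 17.3 normalized counts in the WT libraries against 99.9 and 186 in the Flox pools. In edgeR Ifi204, Ifi30, Slfn2 and Slfn5 passed, and Sp100 (adjusted p = 0.0536), Oas3 (0.0877) and Ptpn6 (0.0626) did not. Without Flox replicate 4 none of the 7 genes that rose had an adjusted p, and in 5 of 7 the unadjusted p was under 0.05, again upward.

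**Figure D4:**
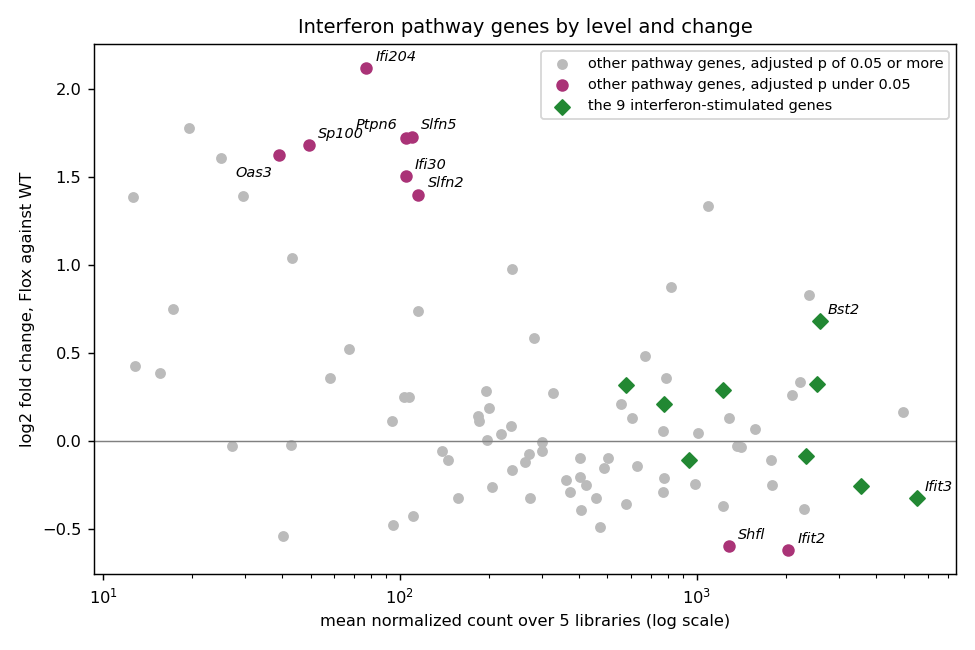
Mean normalized count over the 5 libraries (log axis) against the DESeq2 log2 fold change for the 9 members (green diamonds) and the other interferon pathway genes with an adjusted p (circles, purple under 0.05). The 7 genes that rose have means of 115 or less, while the 2 that fell, Shfl and Ifit2, are at 1279 and 2031 among the members.

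Markers of other cells moved between the libraries at the same time. The summed level of 12 microglia markers was between 1545 and 2931 normalized counts in the WT libraries against 5211 and 11162 in the Flox pools, and 10 of 12 passed as higher in DESeq2, where 4.2% of all genes did. With edgeR 6 passed, and in DESeq2 3 passed without WT replicate 2, 5 without WT replicate 4 and 0 without Flox replicate 4. C1qa, a complement gene with the highest mean of the list, held 627, 743 and 377 normalized counts in the WT libraries against 1598 and 4044 in the Flox pools. Tmem119, a defining microglial gene, held 86.4, 115 and 78.8 against 152 and 267, whereas P2ry12, another one, held 81.1, 54.0 and 33.6 against 70.1 and 72.6, so that its groups overlapped. The sum of 8 endothelial markers was between 128 and 288 in the WT libraries against 299.7 and 770.4 in the Flox pools. In DESeq2 3 of 8 passed as higher, in edgeR 0 did (6 at an unadjusted p under 0.05), and in DESeq2 1 did without WT replicate 2. The sum of 8 T lymphocyte markers was between 110.5 and 129.6 in the WT libraries against 249.8 and 417 in the Flox pools. Of the 8, 2 (Cd8a and Nkg7) passed as higher in DESeq2, where 5 had an adjusted p and 4.2% of all genes were called higher. The same 2 passed in edgeR, where 0.884% of all genes were called higher. Without WT replicate 4 or without Flox replicate 4, scarce genes got no adjusted p in DESeq2. Ifnar2, at a mean of 199, had none without WT replicate 4, and Slfn2, at 115, had none without Flox replicate 4. The endothelial and T lymphocyte markers had means of at most 98.8 and 86.7, so they could not pass in either fit. The scarcest microglia markers, with means from 56.5, lay in the same range. For the members, the summed level was between 18203 and 22761 in the WT libraries against 14578 and 25931 in the Flox pools. Flox replicate 2 thus had more of the microglia sum than every WT library and less of the member sum, while Flox replicate 4 had the most of both. Between the Flox pools, replicate 4 was higher in 12 of 12 microglia markers (median 1.97-fold), 7 of 8 endothelial markers (2.19-fold) and 8 of 8 T lymphocyte markers (1.90-fold). The same held in 9 of 9 astrocyte markers (1.33-fold) and 8 of 8 oligodendrocyte markers (1.22-fold). Replicate 4 was higher in 5 of 11 DAergic markers (0.995-fold) and 1 of 6 GABAergic markers (0.886-fold), and in 6293 of 12846 genes with a mean of at least 50 normalized counts. The part of these cells in the values of the members and of the 7 pathway genes that rose was not tested.

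Between the groups, no astrocyte or oligodendrocyte marker passed. The sum of 9 astrocyte markers was between 74828 and 109197 normalized counts in the WT libraries against 78872 and 102553 in the Flox pools, with 0 of 9 past the threshold in DESeq2 (1 at an unadjusted p under 0.05) and 0 in edgeR (1). That of the 11 DAergic markers was 51984 and 54717 in Flox, inside the WT range, with 1 lower (Ret) in DESeq2 and 0 past the threshold in edgeR (3 at an unadjusted p under 0.05). The sum of 8 oligodendrocyte markers was between 113476 and 167659 in the WT libraries against 129818 and 155237 in the Flox pools, with 0 past the threshold in DESeq2 (0 at an unadjusted p under 0.05) and in edgeR (0). Of 6 GABAergic markers, Sst passed as higher and Gad2 as lower in DESeq2, and 0 passed in edgeR (3 at an unadjusted p under 0.05). Over all 7 marker lists 18 of 62 genes passed in DESeq2, where 59 had an adjusted p and 8.25% of all genes passed. In edgeR 8 of 62 passed, where 1.42% of all genes did.

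**Figure D5:**
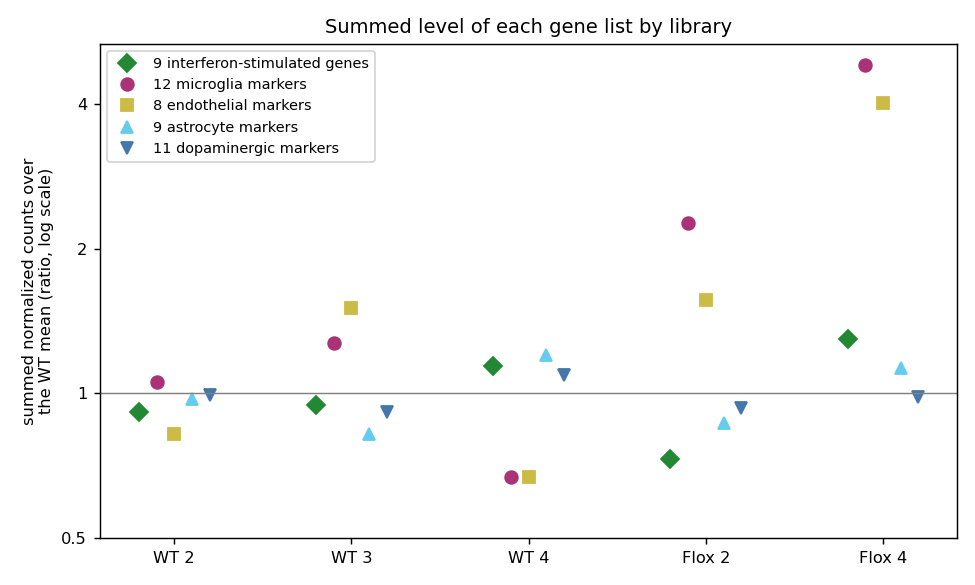
Summed normalized counts of the members and of 4 marker lists in each library, as a ratio to the WT mean on a log axis. In Flox 2 the members are at 0.731 and the microglia markers at 2.26, and in Flox 4 they are at 1.30 and 4.84.

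The genes whose course over the 5 libraries was closest to the median course of the members were looked for among 12837 other genes. Likeness was the root mean square distance between log2(normalized count + 1) profiles, each taken relative to its WT mean. Oas1g, an oligoadenylate synthetase, was nearest (distance 0.0512), followed by Phactr4 (0.0869), Trim21 (0.100), Trim30a (0.101) and Lgals3bp (0.111). The members themselves lay between 0.0799 (Ifit1) and 0.434 (Bst2) from their median. None of these 5 genes passed the test, and Oas1g had 49.5, 47.9 and 55.7 normalized counts in the WT libraries against 35.5 and 73.6 in the Flox pools.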

How the data were processed

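BAC-TRAP RNA from 3 WT and 2 Flox pools of mice was sequenced as poly(A)-selected, non-strand-specific libraries. The authors trimmed, aligned (STAR) and counted the reads with HTSeq, and the deposited table holds raw counts per gene. Their methods name GRCm38 with GENCODE M24, whereas the submitters' processing notes name GRCm39, and 99.9% of matched IDs were newer than in GENCODE M21, so no coordinates are given for the counted genes, and those of the promoters are RefSeq's on GRCm38.p6. Names came from M21 by ID (97.0% of 53700 matched). Reads without a gene, ambiguous between genes or placed more than once (3.18% to 4.45%, 5.62% to 5.78% and 3.60% to 4.23% of each library) were left out.

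All 29407 genes with a count were fitted in DESeq2 version 1.42.0 (R version 4.3.3), the tool of the study's methods, with its Wald test (two-sided), default size factors and Benjamini-Hochberg adjustment, and passing meant an adjusted p under 0.05. All 9 genes that passed in the pathway lists also changed by at least 1.5-fold. edgeR version 4.0.16, TMM library sizes, a filter (10 counts in at least 2 libraries), no independent filtering, a replicate block and each library left out were the alternatives. The scripts were tested on simulated data. A normalized count is a count divided by its size factor. Groups came from the sample titles, and p-values measure the spread between these pools. With 3 and 2 libraries an exact permutation test of 1 gene cannot go below 0.1, so none was run. Members and gene lists were chosen with earlier results of these data known. Genes were named by a rule, namely all members, pathway genes that passed, Esrrg, Ifnar1, Ifnar2, Stat2, Irf9, Usp18 and Ifit2, the leading markers and the 5 nearest profiles. Ifit3b, the ligands with reads, Gfap, P2ry12, Tmem119, Gbp2 and the other family members, and the marker genes that passed were named after their values were seen. Some genes of this rule and of the lists are not reported here by name. Limits on 0 counts cover counting error only.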

Additional observations from a re-analysis of the deposited data

How the results depend on the processing

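The count of members past the threshold was 0 with edgeR, TMM library sizes, the filter on low counts, no independent filtering, the replicate block and without any 1 WT library, and rose to 3 without Flox replicate 2 and 2 without Flox replicate 4 (range 0 to 3). Their median ran from -0.54 to 0.42 when single libraries were left out. The other pathway genes past the threshold (7 higher, 2 lower) became 4 and 1 with edgeR and ran from 0 to 17 and from 1 to 3 when single libraries were left out. Only 1 was lower without WT replicate 2 and without Flox replicate 2. The 17 came without Flox replicate 2, and the 0 came without WT replicate 4 or Flox replicate 4, where none of the 7 had an adjusted p. Marker genes past the threshold (18) became 8 with edgeR and ran from 1 to 20 without single libraries, with 8 without WT replicate 2, 10 without WT replicate 4 and 1 without Flox replicate 4. Scarce markers had no adjusted p without WT replicate 4 or without Flox replicate 4 and could not pass there. All 9 pathway genes that passed kept their direction in every alternative. The cause of these changes was not tested.

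Signs changed only when a library was left out. The ranges of the log2 fold change were -0.86 to 0.062 for Ifit3, -0.0040 to 0.59 for Ifi27, -0.54 to 0.81 for Isg15, -0.62 to 0.31 for Ifit1, -0.67 to 0.065 for Oasl2, -0.54 to 0.22 for Rtp4, -0.11 to 0.47 for Irf7, -0.12 to 0.34 for Stat2 and -0.57 to 0.020 for Irf9. Ifit1 was at 0.030 without WT replicate 4, and all other sign changes came without 1 of the Flox libraries. Bst2 (0.11 to 1.08) and Ifitm3 (0.20 to 0.42) stayed above 0.

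Libraries of both groups share the numbers 2 and 4, and the labels do not say that a number marks a shared litter or day. Deviations of same-numbered libraries from their group means correlated at 0.15 (replicate 2) and 0.13 (replicate 4) over 12846 genes. Those of WT replicate 3 correlated at 0.034 with Flox replicate 2 and at -0.034 with Flox replicate 4. With 2 Flox libraries the deviations of one mirror those of the other, so these values are not independent. With the replicate block 0 members passed (median 0.17), while 4 higher and 1 lower pathway genes and 6 marker genes did. Of the 7 pathway genes that rose, only 4 had an adjusted p in this DESeq2 fit, and those 4 passed. In all 7 the unadjusted p was under 0.05, again upward.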

Other observations

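Families among the listed genes, grouped after their values were seen, did not follow the same course over the libraries, and these are values without a test. The 6 interferon-inducible GTPases (Gbp2, Gbp3, Gbp7, Iigp1, Irgm1 and Igtp), which attack the vacuoles of intracellular parasites and are strongly induced by interferon gamma, summed to 9382, 8340.0 and 6235 normalized counts in WT and to 6883 and 15800.4 in Flox. In 6 of 6 the lowest WT library was replicate 4 (37.3% of genes with a mean of at least 50 normalized counts), and Flox replicate 4 was above every WT library in 6 of 6 (33.3%). The 4 IFIT genes (Ifit1, Ifit2, Ifit3 and Ifit3b) summed to 11578, 12697 and 15589.5 in WT and to 7691 and 13344 in Flox, so that WT replicate 4 was highest. By gene, WT replicate 4 was the highest WT library in 3 of 4 and the lowest in 1, Ifit2. In 4 of 4 IFIT genes Flox replicate 2 was below every WT library (32.5% of those genes). WT replicate 4 over the mean of the other WT libraries was 0.704 for the GTPases and 1.28 for the IFIT genes. WT replicate 4 also had the lowest microglia sum of the WT libraries (1545). Gbp2 alone had 938, 669.5 and 422 normalized counts in the WT libraries against 1009 and 2398 in the Flox pools (DESeq2 log2 fold change 1.33, SE 0.60, adjusted p = 0.166).

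The 6 genes of the OAS family (Oas1a, Oas1b, Oas2, Oas3, Oasl1 and Oasl2) summed to 4217, 3983 and 4820.2 normalized counts in WT and to 2819 and 4678 in Flox, most of it from Oasl2. The 3 Schlafen genes (Slfn2, Slfn5 and Slfn8) summed to 291, 339 and 262 in WT and to 392 and 626 in Flox, where Slfn2 and Slfn5 rose and Slfn8 was at -0.33 (SE 0.25, DESeq2 adjusted p = 0.511). Of the 3 IFITM genes, Ifitm1 and Ifitm2 were scarce beside Ifitm3, with means of 17.3 and 40.4 normalized counts.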
